A study of Homo sapiens with 43 samples.

Results

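Alcohol and aldehyde dehydrogenases oxidise alcohols and aldehydes with NAD as the usual electron acceptor. Ethanol is oxidised to acetaldehyde by alcohol dehydrogenases, and aldehyde dehydrogenases turn acetaldehyde into acetate. Most other members of the family handle aldehydes that arise inside the cell, from lipids, amino acids, carnitine synthesis or one-carbon metabolism. The 8 genes described here were listed by name as dehydrogenases relevant to the ethanol vehicle of this study. They are ADH5, ALDH2, ALDH1B1, ALDH3A2, ALDH6A1, ALDH7A1, ALDH9A1 and ALDH18A1, 8 of 20052 genes counted. All 8 passed the filter on low counts and were among the 16816 genes tested.

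The counts come from total RNA of HMC3, an immortalised human line distributed as microglia, grown in flasks. Dexamethasone at 1 or 0.01 µM, hydrocortisone at 10 or 0.01 µM, the ethanol vehicle belonging to each of these 4 doses, or medium alone was present for 3 days. Cells of each flask were then reseeded without hormone and harvested again on day 6. Dexamethasone is a synthetic analogue of hydrocortisone with a fluorine, an added methyl group and a further double bond in the steroid rings. The hormone groups had 3 libraries each on day 3 and 3 each on day 6. Each of the 4 vehicle groups had 3 libraries on day 3 and 1 on day 6, and medium had 3 libraries, on day 3 only, which makes 43 libraries in 17 groups. The amount of ethanol is not given in the sources used here. All groups are the same line, and the replicates of a group are flasks harvested separately, so a p-value here reflects how much flasks differed. Cells of day 6 came from flasks of day 3, but the tests took all libraries as independent. Which libraries share a flask is not given in the sources used here.

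Depth ran from 7638840 to 24426643 counts per library, with a median of 15110044. Ribosomal RNA genes took 9.897 to 94.86% of them and exceeded 75% in 7 libraries of 7 groups, which left 1083399 to 17542039 counts for all other genes. TSC22D3 and FKBP5, well-known glucocorticoid receptor targets, served as a check of the labels. TSC22D3 rose by 3.99 with dexamethasone at 1 µM, 3.05 with dexamethasone at 0.01 µM and 3.26 with hydrocortisone at 10 µM on day 3 (log2 change against the vehicle), and was at 0.11 with hydrocortisone at 0.01 µM (adjusted p = 1). FKBP5 rose less, by 1.44, 1.23 and 1.22 in the same order, and was at -0.11 with hydrocortisone at 0.01 µM. Of 20 microglia markers listed, 7 were among the genes counted. Of these, MERTK had a median of 9.04 and OLFML3 of 2.05 CPM, the count scaled to library size, here to the non-ribosomal counts. CSF1R, TREM2, CD68 and CD14 had medians of 0.273, 0.248, 0.112 and 0.645 CPM and were at 0 in at least 1 library. Of 12 mesenchymal markers 10 were counted and 8 had a median above 1 CPM, with COL1A1 at 1680 and VIM at 1630. ACTA2 had 0.923 and DCN 0.41 CPM, and COL3A1 and LUM were not counted. The 6 microglia markers named were thus low or near 0 beside the highest mesenchymal ones. Of 5 liver markers, listed because the liver is the main site of ethanol oxidation, only SERPINA1 was counted, at 1.33 CPM. In bulk RNA, fewer cells with a transcript and less of it per cell cannot be told apart.

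ALDH1B1 and ALDH18A1 were the most abundant of the 8 per length of transcript and ALDH2 was by far the least. Levels per length were computed as RPKM, counts per kilobase of exon scaled to the non-ribosomal total of the library, over the union of each gene's exons in GENCODE v29 on GRCh38, and are medians over the 43 libraries. ALDH1B1, a mitochondrial enzyme closely related to ALDH2 that oxidises acetaldehyde and other small aldehydes, lies on chromosome 9 from 38392664 to 38398661 on the forward strand and had 43.7 RPKM. ALDH18A1, the mitochondrial enzyme that starts proline and ornithine synthesis from glutamate, lies on chromosome 10 from 95605929 to 95656706 on the reverse strand and had 42.2 RPKM.

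ADH5 encodes the class III alcohol dehydrogenase, which oxidises formaldehyde bound to glutathione and has little affinity for ethanol. It lies on chromosome 4 from 99070978 to 99088801 on the reverse strand and had 23.6 RPKM. No other alcohol dehydrogenase was analysed here, since none of the 7 others looked for was among the genes counted. ALDH9A1, which oxidises trimethylaminobutyraldehyde on the way to carnitine, lies on chromosome 1 from 165662216 to 165698863 on the reverse strand and had 17.3 RPKM. Both were detected in every library, ADH5 with 103 to 2348 counts and ALDH9A1 with 51 to 1005.

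ALDH6A1, the mitochondrial methylmalonate semialdehyde dehydrogenase of valine and thymine breakdown, lies on chromosome 14 from 74056850 to 74084493 on the reverse strand and had 5.05 RPKM. ALDH3A2, the fatty aldehyde dehydrogenase of the endoplasmic reticulum, whose loss causes Sjögren-Larsson syndrome, lies on chromosome 17 from 19648136 to 19677598 on the forward strand and had 4.43 RPKM. ALDH7A1, or antiquitin, which oxidises the semialdehyde formed in lysine breakdown, lies on chromosome 5 from 126531200 to 126595418 on the reverse strand and had 2.15 RPKM over a long union of exons (17970 bases). These 3 genes were thus of middle rank per length.

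ALDH2, the mitochondrial enzyme that clears most of the acetaldehyde made from ethanol, lies on chromosome 12 from 111766887 to 111817529 on the forward strand and had 0.358 RPKM, with a range of 0.147 to 0.753. It rested on 3 to 101 counts per library, the fewest of the 8, and its estimates carry the widest intervals. By mean log2 CPM, which unlike RPKM is not corrected for length, ALDH2 stood at percentile 31 of all genes tested. ALDH3A2 stood at percentile 64.8 and ALDH1B1 at 92.9.

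Some counts may be shared with copies or neighbours. The processed pseudogene ADH5P4 collected 9.7% as many counts as ADH5, and ALDH7A1P1 25% as many as ALDH7A1, so a part of the reads of these 2 genes may have been split. BBOF1, on the other strand, shares 670 exon bases with ALDH6A1, or 10.0% of its exons, and collected 10.1% as many counts. How the counting used strand is not given in the sources used here, so reads in that overlap cannot be assigned with certainty. None of ADH5P4, ALDH7A1P1 and BBOF1 passed the threshold in any of 21 comparisons, and their smallest adjusted p-values were 0.126, 0.326 and 0.134 (edgeR quasi-likelihood test, Benjamini-Hochberg adjustment).

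The stretches of 250 bases before the RefSeq start sites of ALDH1B1 and ALDH6A1 (GRCh38.p14) are shown because these 2 genes gave most of the changes described below. Capitals mark CCAAT boxes, the element bound by NF-Y, searched as CCAAT on both strands and therefore also visible as ATTGG. The ALDH1B1 stretch is chr9:38392452-38392701 on the forward strand and the ALDH6A1 stretch is chr14:74084454-74084703 on the reverse strand.
ALDH1B1: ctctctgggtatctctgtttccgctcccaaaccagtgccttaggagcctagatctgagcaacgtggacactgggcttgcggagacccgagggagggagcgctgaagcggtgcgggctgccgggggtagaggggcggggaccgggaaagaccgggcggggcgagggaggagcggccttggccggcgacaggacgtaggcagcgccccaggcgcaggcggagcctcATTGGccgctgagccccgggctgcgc
ALDH6A1: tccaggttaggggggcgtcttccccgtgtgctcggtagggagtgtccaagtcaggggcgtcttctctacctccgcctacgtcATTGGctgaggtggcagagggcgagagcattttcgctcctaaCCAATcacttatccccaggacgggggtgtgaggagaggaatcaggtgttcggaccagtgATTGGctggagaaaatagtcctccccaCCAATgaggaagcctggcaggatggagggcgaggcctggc
ALDH1B1 held 1 CCAAT box, 26 bases before the RefSeq start, and ALDH6A1 held 4, which begin 168, 126, 67 and 40 bases before it. In GENCODE v29 the genes start earlier, ALDH1B1 at 38392664 and ALDH6A1, on the reverse strand, at 74084493. The last bases of both stretches thus lie inside the genes as annotated there. The ALDH1B1 box and the ALDH6A1 box nearest the start are in that part. Of all 35116 RefSeq promoter entries of this length, 32% held at least 1 CCAAT box and 0.874% held 4 or more. Entries matched 7 of the 8 genes, with 2 entries for ALDH3A2 and none for ALDH2, which was therefore not searched. Of these 8 stretches 4 held a CCAAT box. The short glucocorticoid receptor motif AGAACA, searched on both strands, was in none of the 8 stretches and in 12.4% of all entries. A match or its lack describes letters in this window only.

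Whether ethanol itself changed these genes was asked by comparing vehicle with medium on day 3. Levels here and below are given as TMM-scaled CPM, and changes are log2 changes from the edgeR fit, called at an adjusted p under 0.05 over all genes tested. None of the 8 genes was called when the 12 vehicle libraries were set against the 3 medium libraries, where 0% of all genes tested were called (0 of 16816 genes by edgeR and 0 by DESeq2, with 902 genes at an unadjusted p under 0.05, and 3 genes by edgeR without medium replicate 1). ALDH2 had a lowest, median and highest level of 0.816, 1.76 and 2.03 CPM in vehicle libraries, against 1.55, 1.94 and 1.38 CPM in the medium libraries. The vehicle range enclosed the medium libraries, and the log2 change was 0.00 (95% interval -0.37 to 0.38).

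ALDH1B1, the other acetaldehyde dehydrogenase, had 70.2, 76.7 and 87.7 CPM as lowest, median and highest in vehicle libraries and 79.4, 78.1 and 73.3 CPM in medium, a log2 change of 0.02 (95% interval -0.11 to 0.14). ADH5 had 52.7, 64.3 and 71.7 CPM in vehicle libraries and 64.8, 64.0 and 62.3 CPM in medium, a log2 change of -0.01 (95% interval -0.16 to 0.14). The libraries of the groups overlapped for each of the 8 genes. The log2 changes of all 8 lay between -0.09 and 0.08 with a median of -0.01, against a median of 0.00 over all genes, and the smallest adjusted p was 0.982. The bounds of the 95% intervals furthest from 0 were 0.38 for ALDH2, -0.27 for ALDH7A1, -0.26 for ALDH6A1 and 0.24 for ALDH3A2, and at most 0.20 in size for the other 4 genes. A p above the threshold does not show that vehicle and medium cells were alike, but a change beyond these bounds lies outside the intervals.

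**Figure D1:**
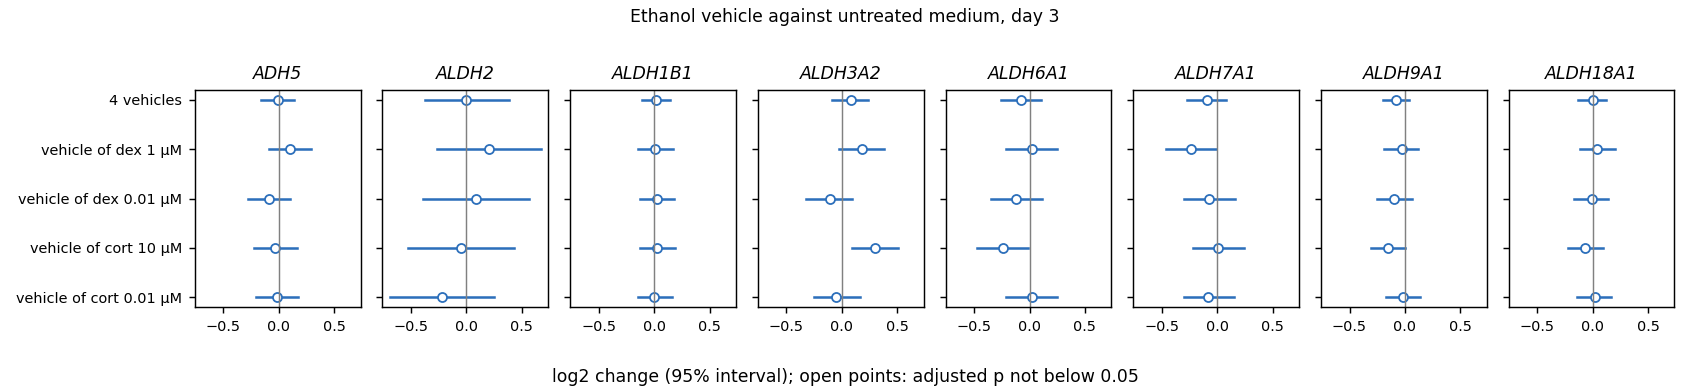
Log2 change of each gene in ethanol vehicle against untreated medium on day 3 (points) with 95% intervals (lines, edgeR quasi-likelihood fit), for all 4 vehicle groups together (12 libraries) and for each group of 3 libraries against the 3 medium libraries; cort stands for hydrocortisone and dex for dexamethasone. All points are open because none passed an adjusted p of 0.05, and ALDH2 has the widest intervals.

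Taken group by group, none of the 8 genes was called in the vehicle of dexamethasone at 1 µM, of dexamethasone at 0.01 µM or of hydrocortisone at 0.01 µM against medium, with 0% of all genes called in each. In the vehicle of hydrocortisone at 10 µM 0.357% of all genes were called, and again none of the 8. ALDH3A2 came nearest there, with 15.2, 18.6 and 17.9 CPM in that vehicle group and 14.1, 15.8 and 12 CPM in medium, a log2 change of 0.30 (SE 0.10, adjusted p = 0.178, edgeR). Replicate 1 of that vehicle group had 91.38% ribosomal counts and only 56 counts of ALDH3A2. ALDH6A1 had a log2 change of -0.24 in the same comparison (95% interval -0.47 to -0.01, adjusted p = 0.353), and its libraries did not overlap those of medium, as for 12.6% of all genes.

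ALDH3A2 also separated the vehicles of the higher doses from those of the lower ones. It had 15.5, 15.4 and 16.6 CPM in the vehicle of dexamethasone at 1 µM and 15.2, 18.6 and 17.9 CPM in the vehicle of hydrocortisone at 10 µM. In the vehicles of the 0.01 µM doses it had 13.2, 11.7 and 13.9 CPM for dexamethasone and 12.8, 14.7 and 13.1 CPM for hydrocortisone. All 6 libraries of the higher-dose vehicles lay above all 6 of the lower-dose vehicles, as for 0.262% of all genes. The log2 change was 0.32 (SE 0.07, 95% interval 0.17 to 0.46), but its adjusted p of 0.123 missed the threshold, which 0.00595% of all genes passed. None of the other 7 genes had an unadjusted p under 0.05 in that comparison.

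Hormone treatment changed a few of the 8 genes on day 3, and ALDH1B1 fell in 3 of the 4 comparisons. With dexamethasone at 1 µM 2 genes rose and 1 fell, where 22.6% of all genes were called, 10.3% higher and 12.3% lower. With dexamethasone at 0.01 µM 1 rose and 1 fell (14% of all genes, 6.14% higher and 7.84% lower), and with hydrocortisone at 10 µM 1 rose and 1 fell (13.1%, 5.57% higher and 7.51% lower). With hydrocortisone at 0.01 µM none was called (0% of all genes by edgeR, with 397 at an unadjusted p under 0.05, and 1 gene by DESeq2). The median log2 change of the 8 genes was -0.06, 0.00, 0.00 and -0.01 in these 4 comparisons, against 0.02, 0.00, 0.01 and 0.00 over all genes, so the 8 did not move as a block.

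**Figure D2:**
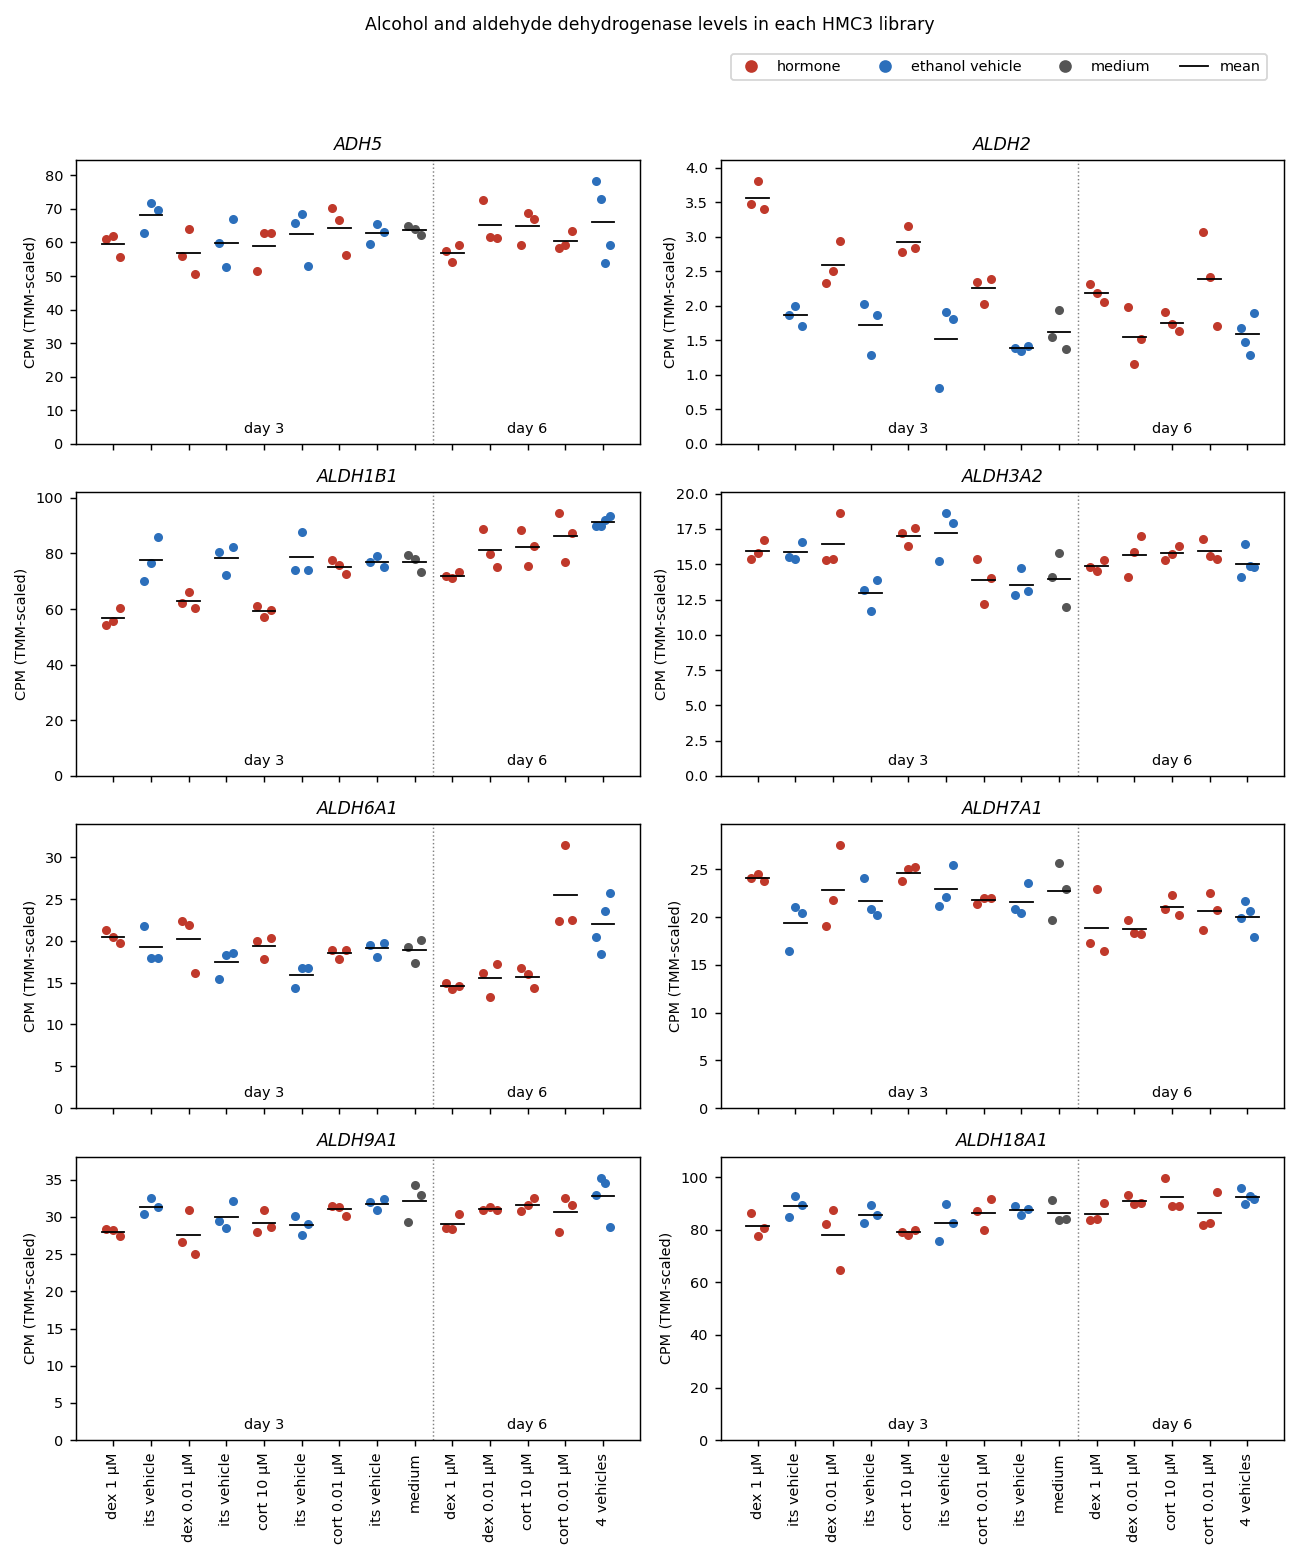
CPM (TMM-scaled, linear axis from 0) of each of the 8 genes in every library; columns are the hormone groups, each followed on day 3 by its own ethanol vehicle, then medium, and on day 6 the hormone groups followed by the 4 vehicle libraries; horizontal bars are means. The 9 ALDH1B1 libraries of the 2 dexamethasone doses and of hydrocortisone at 10 µM lie between 54.4 and 66.3 CPM on day 3, below the 70.2 to 87.7 CPM of the vehicle libraries. The share of all genes separated in this pooled way was not computed.

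ALDH1B1 had 54.4, 55.7 and 60.5 CPM with dexamethasone at 1 µM, against 70.2, 76.4 and 85.9 CPM in its vehicle. It had 62.2, 66.3 and 60.3 CPM with dexamethasone at 0.01 µM, against 80.4, 72.2 and 82.4 CPM in its vehicle. It had 61.1, 57.2 and 59.8 CPM with hydrocortisone at 10 µM, against 73.9, 87.7 and 74.2 CPM in its vehicle. In each of these comparisons every hormone library lay below every vehicle library, as for 38.3%, 23.5% and 29% of all genes. The log2 changes were -0.45 (SE 0.08, adjusted p = 2.07e-05), -0.32 (SE 0.08, adjusted p = 0.00363) and -0.41 (SE 0.08, adjusted p = 0.000183; edgeR), which is 1.36-, 1.24- and 1.32-fold lower. With dexamethasone at 1 µM the summed level of the 10 mesenchymal markers counted was 5140 to 5460 CPM of non-ribosomal counts. Its vehicle had 4610 to 4850. The mesenchymal sums overlapped for dexamethasone at 0.01 µM, at 4890 to 6080 against 4710 to 5240 in its vehicle. They also overlapped for hydrocortisone at 10 µM, at 4770 to 5110 against 4760 to 5270. The sum of the 6 microglia markers named above was 11.7 to 13.8 with dexamethasone at 1 µM and 10.5 to 11.3 in its vehicle. With dexamethasone at 0.01 µM that sum was 11.2 to 17.5, and 11.6 to 14.7 in its vehicle. With hydrocortisone at 10 µM it was 13.7 to 15, and 13.3 to 15.2 in its vehicle. These 6 are not the whole list, whose sum is not reported here, and they do not show which way the whole list moved. The part of these levels in the results was not tested.

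With hydrocortisone at 0.01 µM ALDH1B1 had 77.5, 75.8 and 72.6 CPM, against 77.1, 79.1 and 75 CPM in its vehicle, and the groups overlapped (log2 change -0.03, 95% interval -0.19 to 0.12). The fall at 10 µM of hydrocortisone exceeded that at 0.01 µM by a log2 difference of -0.37 (SE 0.11, adjusted p = 0.0408, edgeR), where 4.09% of all genes were called. That difference lost its call when replicate 3 or 4 of hydrocortisone at 10 µM, replicate 2 or 3 of hydrocortisone at 0.01 µM, replicate 2 of the higher-dose vehicle or any of the 3 libraries of the lower-dose vehicle was left out (-0.39 to -0.29, adjusted p up to 0.166). The call for dexamethasone at 0.01 µM was also lost without the libraries above 75% ribosomal RNA (-0.28, adjusted p = 0.0529), of which replicate 3 of that group, with 94.86%, is a member.

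ALDH2 moved the other way, at a level near the lower limit of these data. It had 3.47, 3.8 and 3.40 CPM with dexamethasone at 1 µM, against 1.87, 2.00 and 1.71 CPM in its vehicle. The groups did not overlap, as for 38.3% of all genes. ALDH2 rose by 0.93 on the log2 scale (SE 0.23, 95% interval 0.47 to 1.4, adjusted p = 0.00217, edgeR), or 1.91-fold. These values rest on 31 to 83 counts per hormone library and 23 to 48 per vehicle library.

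With hydrocortisone at 10 µM ALDH2 had 2.77, 3.15 and 2.83 CPM, against 0.816, 1.91 and 1.81 CPM in its vehicle, and rose by 0.90 (SE 0.23, adjusted p = 0.00619). The lowest of these vehicle libraries, replicate 1, held 3 counts of ALDH2. Without it the change was 0.65 and was not called (adjusted p = 0.077). With dexamethasone at 0.01 µM ALDH2 had 2.33, 2.50 and 2.94 CPM, against 2.03, 1.28 and 1.86 CPM in its vehicle (log2 change 0.57, adjusted p = 0.106). The groups did not overlap, as for 23.5% of all genes, and the last hormone library held only 6 counts. Set against the mean of all 4 vehicle groups, the change with dexamethasone at 0.01 µM was 0.66 and was called (adjusted p = 0.0068).

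With hydrocortisone at 0.01 µM, where no gene was called, ALDH2 had 2.34, 2.03 and 2.39 CPM, against 1.39, 1.35 and 1.42 CPM in its vehicle (log2 change 0.70, 95% interval 0.23 to 1.16, adjusted p = 1). The groups did not overlap, as for 9.2% of all genes. Over all 4 doses the 12 hormone libraries of day 3 had 2.03 to 3.8 CPM of ALDH2 and the 12 vehicle libraries 0.816 to 2.03 CPM, and each of the 4 log2 changes was above 0. How many of all genes had pooled ranges as far apart was not computed. The difference between the doses of a hormone was 0.36 for dexamethasone (95% interval -0.31 to 1.03) and 0.20 for hydrocortisone (-0.46 to 0.87), neither called.

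ALDH7A1 and ALDH3A2 were each called in 1 comparison on day 3. ALDH7A1 had 24.1, 24.5 and 23.8 CPM with dexamethasone at 1 µM, against 16.5, 21.1 and 20.4 CPM in its vehicle, and rose by 0.32 (SE 0.11, adjusted p = 0.0335). The groups did not overlap, as for 38.3% of all genes. The call was lost without replicate 1 of that vehicle group, its lowest library (0.22, adjusted p = 0.23), and without any of the 3 hormone libraries (0.31 to 0.33, adjusted p up to 0.0822), and with the replicate number as a block (0.26, adjusted p = 0.0775). Against medium, where ALDH7A1 had 19.7, 25.7 and 22.9 CPM, the change was 0.08 (adjusted p = 0.665).

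ALDH3A2 had 15.3, 15.4 and 18.6 CPM with dexamethasone at 0.01 µM, against 13.2, 11.7 and 13.9 CPM in its vehicle, and rose by 0.34 (SE 0.10, adjusted p = 0.0189). The highest hormone library, replicate 3, is the one with 94.86% ribosomal counts and held 38 counts of ALDH3A2. The change was 0.25 without it and 0.27 without replicate 2 of the vehicle (adjusted p = 0.16 and 0.116), and 0.15 against the mean of all 4 vehicle groups (adjusted p = 0.195). With dexamethasone at 1 µM ALDH3A2 had 15.4, 15.8 and 16.7 CPM, against 15.5, 15.4 and 16.6 CPM in its vehicle (log2 change 0.01, 95% interval -0.19 to 0.22). The groups overlapped. The rise with dexamethasone at 0.01 µM was measured against the vehicle group with the lowest mean of the 4, at 12.9 CPM.

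ADH5, ALDH6A1, ALDH9A1 and ALDH18A1 were called in no hormone comparison of day 3. ADH5, the glutathione-dependent formaldehyde dehydrogenase, had 61.0, 61.8 and 55.7 CPM with dexamethasone at 1 µM, against 62.8, 71.7 and 69.7 CPM in its vehicle (log2 change -0.19, 95% interval -0.38 to 0.00, adjusted p = 0.138). ALDH9A1 had 28.4, 28.3 and 27.4 CPM, against 30.4, 32.5 and 31.3 CPM in the same comparison (-0.16, -0.32 to -0.01, adjusted p = 0.118). For both genes the hormone libraries lay below the vehicle libraries, without a call, where groups did not overlap for 38.3% of all genes. ALDH6A1 had 20, 17.8 and 20.3 CPM with hydrocortisone at 10 µM, against 14.4, 16.8 and 16.7 CPM in its vehicle (0.28, 0.05 to 0.51, adjusted p = 0.108). With dexamethasone at 0.01 µM ALDH6A1 was at 0.21 (adjusted p = 0.236), and at 0.34 and called without replicate 3 of that group (adjusted p = 0.0474). ALDH18A1 changes on day 3 lay between -0.13 and -0.02.

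The 2 hormones could be set against each other at a matched dose at 0.01 µM only, a single pair of compounds, for which 4.98% of all genes were called and none of the 8. The nearest was ALDH1B1, whose vehicle-corrected change was lower with dexamethasone than with hydrocortisone by a log2 difference of -0.28 (95% interval -0.50 to -0.06, adjusted p = 0.152). The log2 change of ALDH1B1 was -0.32 with dexamethasone and -0.03 with hydrocortisone at that dose. For ALDH2 the difference was -0.12 (95% interval -0.79 to 0.55). Between the 2 doses of dexamethasone 0.0476% of all genes were called and again none of the 8. The higher doses, 1 µM of dexamethasone and 10 µM of hydrocortisone, differ in concentration, and the ALDH1B1 changes there were -0.45 and -0.41.

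**Figure D3:**
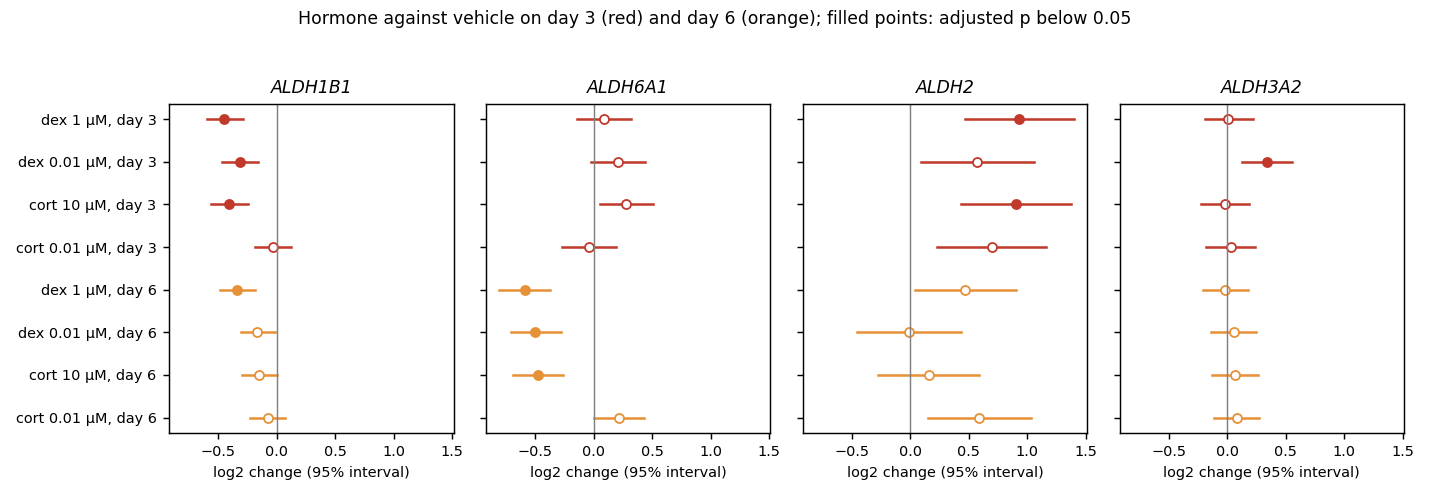
Log2 change (points) with 95% interval (lines) of ALDH1B1, ALDH6A1, ALDH2 and ALDH3A2 with each hormone dose against vehicle, day 3 in red and day 6 in orange; dex stands for dexamethasone and cort for hydrocortisone, and filled points passed an adjusted p of 0.05 (edgeR). ALDH1B1 points lie left of 0 in all 8 comparisons, and ALDH6A1 points are filled on day 6 for all doses but hydrocortisone at 0.01 µM.

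After 3 days without hormone ALDH6A1 was lower than in vehicle in 3 of the 4 hormone groups, although it had not been called on day 3. Day 6 hormone groups were compared with the same 4 vehicle libraries, 1 of each vehicle group, so these comparisons share their controls. With dexamethasone at 1 µM 2 of the 8 genes fell (10.2% of all genes called, 5.13% higher and 5.04% lower), with dexamethasone at 0.01 µM 1 fell (0.0833%, 0.0476% higher and 0.0357% lower), with hydrocortisone at 10 µM 1 fell (0.892%, 0.422% higher and 0.47% lower), and with hydrocortisone at 0.01 µM none was called (0.0892%).

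ALDH6A1 had 14.9, 14.2 and 14.6 CPM with dexamethasone at 1 µM, 16.1, 13.3 and 17.2 CPM with dexamethasone at 0.01 µM and 16.8, 16 and 14.3 CPM with hydrocortisone at 10 µM. The vehicle libraries of day 6 had 23.6, 25.7, 20.5 and 18.4 CPM, for the vehicles of dexamethasone at 1 and 0.01 µM and of hydrocortisone at 10 and 0.01 µM. The first of these libraries had 77.12% ribosomal counts and held 146 counts of ALDH6A1. All 9 hormone libraries lay below all 4 vehicle libraries. Taken singly, groups did not overlap for 20.2%, 6.67% and 11% of all genes in these 3 comparisons. The share for the 9 libraries together was not computed. The log2 changes were -0.59 (SE 0.11, adjusted p = 0.000122), -0.50 (SE 0.11, adjusted p = 0.0451) and -0.48 (SE 0.11, adjusted p = 0.0131; edgeR), or 1.5-, 1.41- and 1.39-fold lower.

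The fall with dexamethasone at 1 µM kept its call whichever library was left out (-0.67 to -0.51). With dexamethasone at 0.01 µM it lost its call without replicate 1 (-0.52, adjusted p = 0.0782) or 2 of the hormone group (-0.40, adjusted p = 0.565), or without the vehicle library of dexamethasone at 1 µM (-0.46, adjusted p = 0.287) or 0.01 µM (-0.42, adjusted p = 0.185), and with the replicate number as a block (-0.51, adjusted p = 0.0543). With hydrocortisone at 10 µM the call was lost without replicate 3 (-0.49, adjusted p = 0.0996) or 4 (-0.42, adjusted p = 0.144), or without the same vehicle libraries of dexamethasone at 1 µM (-0.44, adjusted p = 0.0666) and 0.01 µM (-0.40, adjusted p = 0.0855). For dexamethasone at 0.01 µM the call was also lost without the filter on low counts (-0.5, adjusted p = 0.0545, edgeR). Without the libraries above 75% ribosomal RNA it was lost too (-0.45, adjusted p = 0.102, edgeR). The direction did not change in any of these.

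With hydrocortisone at 0.01 µM ALDH6A1 had 22.4, 31.4 and 22.5 CPM on day 6, a log2 change of 0.22 against the vehicle libraries (95% interval 0.00 to 0.43, adjusted p = 0.505). The middle value, replicate 3, was the highest of all 43 libraries, and the group overlapped the vehicle libraries.

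The change of ALDH6A1 between the days was itself tested, by subtracting the day 3 change from the day 6 change, with the pooled vehicles of the matching day as control. It was -0.78 for dexamethasone at 1 µM (SE 0.14, adjusted p = 0.000338, with 1.69% of all genes called, 1.12% higher and 0.571% lower), -0.67 for dexamethasone at 0.01 µM (SE 0.14, adjusted p = 0.000983, with 6.54% called, 4.01% higher and 2.53% lower) and -0.59 for hydrocortisone at 10 µM (SE 0.14, adjusted p = 0.00426, with 6.97% called, 4.31% higher and 2.66% lower). ALDH6A1 was the only one of the 8 genes called in these 3 tests, and it stayed called under each alternative and each left-out library. The 3 tests share their vehicle libraries. They took libraries of day 3 and day 6 as independent, although the cells of day 6 had been reseeded from flasks of day 3. In vehicle libraries ALDH6A1 was at 22.1 ± 3.23 CPM on day 6 (SD, n = 4) and 17.9 ± 1.98 CPM on day 3 (SD, n = 12), a log2 change of 0.29 that was not called (SE 0.08, adjusted p = 0.0804). Without the day 6 vehicle library of hydrocortisone at 0.01 µM it was 0.37 and called (adjusted p = 0.0428).

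ALDH1B1 stayed low on day 6 with dexamethasone at 1 µM. It had 71.8, 71.0 and 73.2 CPM there, against 92.1, 93.4, 89.8 and 89.7 CPM in the vehicle libraries, and the groups did not overlap, as for 20.2% of all genes (log2 change -0.34, SE 0.07, adjusted p = 0.00104). With dexamethasone at 0.01 µM it had 88.8, 79.7 and 75.3 CPM (-0.17, 95% interval -0.31 to -0.02, adjusted p = 0.616), and with hydrocortisone at 10 µM 88.6, 75.4 and 82.6 CPM (-0.15, -0.30 to 0.00, adjusted p = 0.437). These libraries also lay below all 4 vehicle libraries, without a call, beside the 6.67% and 11% of all genes without overlap. The washout change of ALDH1B1 was 0.11 for dexamethasone at 1 µM (95% interval -0.08 to 0.31) and 0.24 for hydrocortisone at 10 µM (0.05 to 0.43, adjusted p = 0.129), neither called.

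In the vehicles themselves ALDH1B1 was higher on day 6, at 91.2 ± 1.80 CPM (SD, n = 4), than on day 3, at 77.9 ± 5.41 CPM (SD, n = 12), by a log2 change of 0.23 (SE 0.05, adjusted p = 0.0309, with 0.505% of all genes called). It was the only one of the 8 genes called there. The call was lost for 8 of the 16 libraries when each was left out, among them each of the 4 day 6 libraries, replicate 1 of the day 3 vehicles of both higher doses, replicate 4 of the day 3 vehicle of hydrocortisone at 0.01 µM and replicate 2 of that of dexamethasone at 0.01 µM (0.21 to 0.24, adjusted p up to 0.149).

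ALDH2 was called in no comparison on day 6. It had 2.31, 2.18 and 2.06 CPM with dexamethasone at 1 µM, against 1.29, 1.90, 1.68 and 1.48 CPM in the vehicle libraries (log2 change 0.47, 95% interval 0.04 to 0.90, adjusted p = 0.176), with no overlap, as for 20.2% of all genes, and no call. With hydrocortisone at 0.01 µM it had 3.07, 2.41 and 1.70 CPM (0.59, 0.15 to 1.03, adjusted p = 0.331), the highest library, replicate 2, holding 17 counts and 76.77% ribosomal RNA. Its washout changes were -0.66, -0.67 and -0.69 for dexamethasone at 1 and 0.01 µM and hydrocortisone at 10 µM, with adjusted p-values of 0.316, 0.181 and 0.146, none called. With dexamethasone at 1 µM on day 6, ADH5 was at -0.20 and ALDH9A1 at -0.17, and each was called in 1 refit, ADH5 without the vehicle library of dexamethasone at 1 µM (-0.29, adjusted p = 0.0436) and ALDH9A1 without that of 0.01 µM (-0.23, adjusted p = 0.0396).

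**Figure D4:**
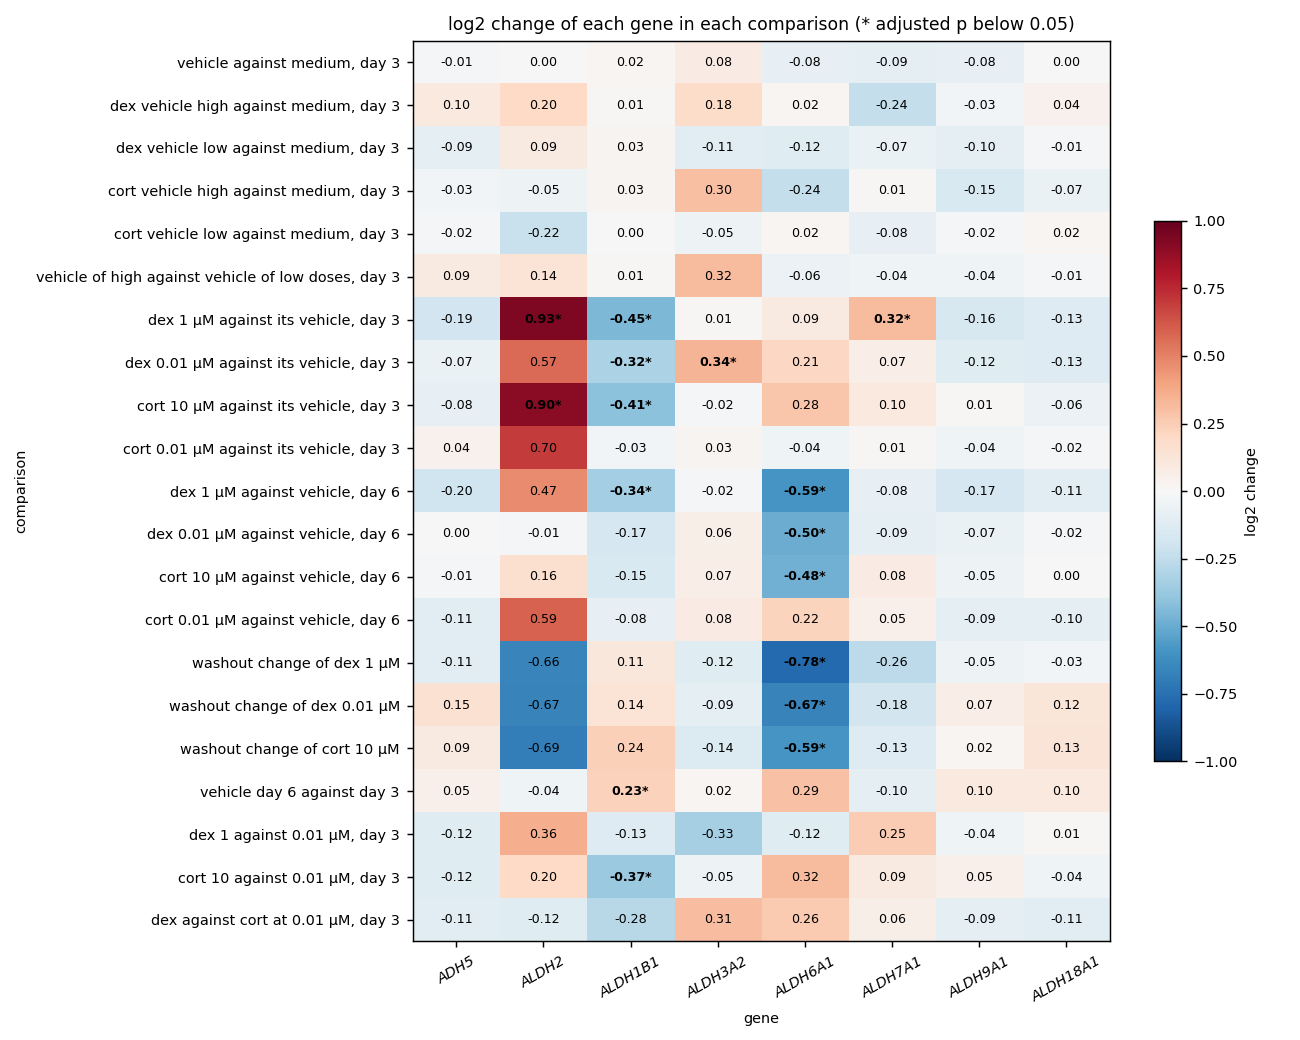
Log2 change of each of the 8 genes (columns) in each of the 21 comparisons (rows), blue below and red above 0; dex stands for dexamethasone, cort for hydrocortisone, high and low for the larger and smaller dose, and an asterisk marks an adjusted p below 0.05 (edgeR). Of 168 values 16 carry an asterisk, 11 lower and 5 higher, and they fall in 5 of the 8 genes, with none in ADH5, ALDH9A1 and ALDH18A1. The share of all genes called ran from 0 to 22.6% over the 21 comparisons, many of which share libraries.

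Over the 13 groups of 3 libraries and the pooled 4 day 6 vehicle libraries, the means of ALDH2 ran from 1.39 ± 0.0389 CPM in the vehicle of hydrocortisone at 0.01 µM on day 3 to 3.56 ± 0.213 CPM with dexamethasone at 1 µM on day 3, a 2.56-fold range and the widest of the 8. Next to that highest group stood hydrocortisone at 10 µM on day 3, at 2.92 ± 0.205 CPM, and its libraries did not overlap those of dexamethasone at 1 µM. Of the 13 pairs of neighbours in this order 11 overlapped. The share of all genes with separate neighbours was not computed, here or for the other genes below. ALDH6A1 had the next widest range, 1.75-fold, from 14.6 ± 0.362 CPM with dexamethasone at 1 µM on day 6 to 25.4 ± 5.17 CPM with hydrocortisone at 0.01 µM on day 6, and all 13 pairs of neighbours overlapped.

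ALDH1B1 means ran from 56.8 ± 3.24 CPM with dexamethasone at 1 µM on day 3 to 91.2 ± 1.80 CPM in the day 6 vehicles, a 1.60-fold range. The 3 lowest groups, dexamethasone at 1 µM, hydrocortisone at 10 µM (59.4 ± 1.95 CPM) and dexamethasone at 0.01 µM (62.9 ± 3.08 CPM), all of day 3, did not overlap the next, dexamethasone at 1 µM on day 6, at 72.0 ± 1.11 CPM. No other pair of neighbours was separate. The group means of ADH5, ALDH9A1 and ALDH18A1 spanned 1.20-, 1.19- and 1.19-fold, and those of ALDH3A2 and ALDH7A1 1.33- and 1.32-fold, with no separate neighbours.

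Among the 8 genes, the 17 group means on the log2 scale were most alike for ALDH1B1 and ALDH18A1 (Pearson r = 0.85) and most opposed for ALDH2 and ALDH1B1 (r = -0.77). These groups share libraries of unequal depth and the same scaling, and the values are descriptions. Among 11669 genes of at least a mean log2 CPM of 1, the closest to ALDH2 were LEPR (r = 0.918) and NNMT (0.915), to ALDH1B1 GPR176 (0.97) and SH3RF1 (0.961), and to ALDH6A1 NAV3 (0.898) and OIP5-AS1 (0.86). ADH5 was closest to DLD (0.911) and PPIA (0.909), and ALDH9A1 to ERGIC2 (0.945) and AHCTF1 (0.927). ALDH18A1 was closest to TTC27 (0.928) and UBL5 (0.918), ALDH7A1 to IDI1 (0.857) and FIGN (0.839), and ALDH3A2 to TMEM203 (0.795) and WBP1 (0.753).

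The genes around these enzymes were listed by pathway and give the setting of the changes above. None of the genes tested in any of these lists was called in vehicle against medium, where 0% of all genes were called, so this says nothing particular to the lists. Of 8 further aldehyde dehydrogenases tested, 2 rose and 1 fell with dexamethasone at 1 µM, 2 rose with dexamethasone at 0.01 µM and 1 rose with hydrocortisone at 10 µM, where 22.6%, 14% and 13.1% of all genes were called. ALDH3B1, which oxidises lipid-derived aldehydes, rose in all 3, by 0.83, 0.66 and 0.77 (adjusted p = 3.71e-05, 0.00161 and 0.000258). ALDH1L2, a mitochondrial formyltetrahydrofolate dehydrogenase, rose by 0.45 with dexamethasone at 1 µM (adjusted p = 0.0487) and by 1.18 at 0.01 µM (adjusted p = 1.7e-06), while its cytosolic counterpart ALDH1L1 fell by 0.69 with dexamethasone at 1 µM (adjusted p = 0.0294).

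Of 9 genes tested for other steps of ethanol, aldehyde and acetate handling, 2, 1 and 1 rose in the same 3 comparisons and none fell, against the same shares of all genes. AKR1B1, aldose reductase, rose by 0.44, 0.31 and 0.30 (adjusted p = 0.000626, 0.0223 and 0.029), and ACSS2, which makes acetyl-CoA from acetate, rose by 0.31 with dexamethasone at 1 µM (adjusted p = 0.0283). Of 10 genes of formaldehyde and glutathione handling around ADH5, 1 rose and 4 fell with dexamethasone at 1 µM, 1 rose and 1 fell at 0.01 µM, and 2 fell with hydrocortisone at 10 µM. The last 2 counts, 2 of 10 each, are near the 14% and 13.1% of all genes called, and 22.6% were called with dexamethasone at 1 µM. SHMT2, mitochondrial serine hydroxymethyltransferase, fell by 0.44 with dexamethasone at 1 µM (adjusted p = 5.99e-05) and by 0.38 with hydrocortisone at 10 µM (adjusted p = 0.000683).

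Of 10 genes of proline and glutamate metabolism around ALDH18A1, 3 rose and 2 fell with dexamethasone at 1 µM, 3 rose and 1 fell at 0.01 µM, and 2 rose and 1 fell with hydrocortisone at 10 µM, against the same shares of all genes. GLUD1, glutamate dehydrogenase, rose in all 3, by 0.70, 0.53 and 0.47 (adjusted p = 1.35e-09, 1.3e-06 and 1.48e-05), and OAT, ornithine aminotransferase, fell by 0.36 with dexamethasone at 1 µM (adjusted p = 0.00146). Of 7 carnitine genes around ALDH9A1, 5, 0 and 2 rose and none fell, against the same shares of all genes. SLC22A5, the carnitine importer of the plasma membrane, rose by 1.15 with dexamethasone at 1 µM and 1.18 with hydrocortisone at 10 µM (adjusted p = 0.000983 and 0.00153). The median log2 change of the 7 was 0.44, 0.22 and 0.22, against 0.02, 0.00 and 0.01 over all genes.

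Of 16 genes of branched-chain amino acid breakdown around ALDH6A1, 1 fell in each of the 3 comparisons on day 3, the same gene each time, and none rose. The shares of all genes called there were 22.6%, 14% and 13.1%. That gene was BCAT1, the cytosolic aminotransferase of the first step, with -0.74, -0.35 and -0.39 (adjusted p = 3.5e-11, 0.000395 and 8.77e-05). On day 6 with dexamethasone at 1 µM, where ALDH6A1 was low, 4 of the 16 fell, among them BCAT1 (-0.54, adjusted p = 6.65e-08) and MMUT, methylmalonyl-CoA mutase (-0.37, adjusted p = 0.00321), where 10.2% of all genes were called, and the median of the 16 was -0.20 against 0.02 over all genes. With hydrocortisone at 10 µM on day 6 only BCAT1 fell (-0.29, adjusted p = 0.0175), and with dexamethasone at 0.01 µM none of the 16 was called.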

How the data were processed

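RNA of 43 HMC3 libraries was sequenced from stranded total RNA libraries, paired end, per the labels' protocols. The deposited table holds counts per gene. Per the submitters' processing notes the tools included FastQC, STAR and featureCounts of the Subread package, with GRCh38, versions and strand setting not given in the sources used here. Of 20052 gene IDs, 19978 took a symbol from the gene name table, 70 from GENCODE v29 and 4 none, and 0 columns of the table were left out.

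From these counts, libraries were scaled by TMM and filtered with filterByExpr (minimum count 10, minimum total 15). One edgeR 4.0.16 quasi-likelihood fit (R 4.3.3) over all 17 groups, with 26 residual degrees of freedom, tested 21 comparisons, each adjusted by Benjamini-Hochberg over 16816 genes at a threshold of 0.05. Intervals are 95% intervals of the fit. DESeq2 1.42.0 was an alternative test. The genes and lists were chosen with earlier results of these data known. All 8 genes are named, with up to 3 genes of each pathway list with the smallest p among those called in each day 3 comparison of a hormone with its vehicle and in vehicle against medium, up to 2 in each other comparison, and the 2 genes most correlated with each. On simulated data for dexamethasone at 1 µM (16302 genes), 24% of 1.25-fold, 68% of 1.5-fold, 82% of 2-fold and 100% of 4-fold changes were recovered (50 genes each), and 8 of 16102 unchanged genes were called. The changed genes were drawn from those above a minimum expected count. Far fewer genes were changed there than the 3804 called in the data, which alters the adjusted threshold. The recovered shares therefore do not carry over to the real comparison. Replicates were compared pairwise, and all 39 pairs differed by more than sampling noise (median ratio of observed to Poisson spread 1.51 to 3.37). Alternatives were DESeq2, RLE scaling, no filter, removal of the 11 ribosomal RNA genes, removal of libraries above 75% ribosomal counts, a replicate block, other references, separate fits and each library left out. Leaving out each day 6 vehicle library was chosen after seeing the data. One marker gene and the sums that hold it are not reported here.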

Additional observations from a re-analysis of the deposited data

Results flagged for a closer look

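ALDH6A1 was picked out because its hormone effect differed between day 6 and day 3 in a test of the difference itself. The difference was -0.78 for dexamethasone at 1 µM, -0.67 for dexamethasone at 0.01 µM and -0.59 for hydrocortisone at 10 µM on the log2 scale (adjusted p = 0.000338, 0.000983 and 0.00426, edgeR). All 9 hormone libraries lay below the 4 vehicle libraries on day 6, and the 3 tests share these vehicle libraries. In the single comparisons groups did not overlap for 20.2%, 6.67% and 11% of all genes, and the share for the 9 libraries together was not computed.

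ALDH1B1 was picked out because the effect of hydrocortisone differed between 10 and 0.01 µM, by -0.37 (adjusted p = 0.0408). Among the 4 pooled day 6 vehicle libraries, the only set large enough for this check, none stood far enough from the others to be picked out for any of the 8 genes.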

How the results depend on the processing

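Of 16 called values 8 stayed called under every setting and left-out library that was run. Of the 16, DESeq2 kept 15, RLE scaling 16, no filter on low counts 12, removal of ribosomal RNA genes 15, removal of libraries above 75% ribosomal RNA 12, and the replicate block 14. Of the 7 called in a hormone against its vehicle on day 3, a fit of the comparison's own libraries kept 4, the mean of all 4 vehicle groups as control 5 and medium as control 5. The replicate numbers were not treated as pairs, since the correlation of deviations was -0.23 to 0.13 over 9 pairs of hormone and vehicle (2 over 0.1) and -0.20 to 0.24 over 12 pairs of days (7 over 0.1, all 3 of hydrocortisone at 10 µM among them). The block had a term for each replicate number over all groups and did not pair the days of a flask. It ended the calls of ALDH7A1 with dexamethasone at 1 µM on day 3 (0.26, adjusted p = 0.0775) and of ALDH6A1 with dexamethasone at 0.01 µM on day 6 (-0.51, adjusted p = 0.0543, with 0 of the 8 genes called against 1). The count for dexamethasone at 0.01 µM on day 3, 2 of 8, was 1 with DESeq2, 1 without ribosomal RNA genes, 0 without libraries above 75% and 0 in a fit of its own libraries. Such a fit gave 1 against 2 for hydrocortisone at 10 µM. Without the filter the count was 0 against 1 for dexamethasone at 0.01 µM on day 6, for vehicle day 6 against day 3 and for the doses of hydrocortisone, and it was also 0 for the first 2 of these without libraries above 75%. ALDH3A2 with hydrocortisone at 10 µM was 0.28 with medium as its control (adjusted p = 0.0484) and -0.02 with its vehicle, and ALDH9A1 with dexamethasone at 0.01 µM was -0.22 against medium (adjusted p = 0.0412). With each library left out the counts ran from 2 to 3 for dexamethasone at 1 µM on both days, from 1 to 2 for dexamethasone at 0.01 µM and hydrocortisone at 10 µM on day 3, from 0 to 1 for these on day 6, for vehicle day 6 against day 3 and for the doses of hydrocortisone, at 1 for each washout change and at 0 elsewhere. The cause was not tested. Counts over all genes also moved. For dexamethasone at 0.01 µM on day 3, 2351 genes became 1522 without libraries above 75%, 3630 against all vehicles and 709 in a fit of its own. For hydrocortisone at 10 µM, 2200 became 4066 against all vehicles on day 3, and 150 became 238 with DESeq2 and 250 without ribosomal RNA genes on day 6. For hydrocortisone at 0.01 µM, 0 became 1 with DESeq2 and 3 against all vehicles on day 3, and 15 became 25 with DESeq2, 9 without ribosomal RNA genes and 8 with the block on day 6. The vehicle of hydrocortisone at 10 µM against medium had 60, 26 without ribosomal RNA genes and 11 without libraries above 75%, and the vehicles of the 0.01 µM doses 1 each against 0 without those libraries. Vehicle day 6 against day 3 had 85 and 37 without them, the doses of dexamethasone 8, 14 with DESeq2 and 4 without ribosomal RNA genes, and the vehicles of higher against lower doses 1, 4 with DESeq2 and 3 with the block. With each library left out, the vehicle of hydrocortisone at 10 µM against medium ran from 3 to 150 genes, the day 6 counts of dexamethasone at 0.01 µM, hydrocortisone at 10 µM and hydrocortisone at 0.01 µM from 0 to 23, 34 to 174 and 1 to 85, and vehicle day 6 against day 3 from 17 to 114. Depth limits ALDH2 most, at 3 to 101 counts per library.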

Other observations

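Of 6 genes tested for lysine breakdown around ALDH7A1, none was called with either dose of dexamethasone on day 3, and 1 fell with hydrocortisone at 10 µM, DLST, a subunit of the oxoglutarate dehydrogenase complex (-0.36, adjusted p = 0.00678, edgeR). Of all genes 22.6% were called with dexamethasone at 1 µM, 14% at 0.01 µM and 13.1% with hydrocortisone at 10 µM. On day 6 with dexamethasone at 1 µM AASS, which catalyses the opening steps of lysine breakdown, fell by 0.64 (adjusted p = 0.000407), where 10.2% of all genes were called. The median of the 6 was -0.18 there, against 0.02 over all genes.

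Of 10 genes of fatty aldehyde and sphingolipid metabolism around ALDH3A2, 2 rose and 1 fell with dexamethasone at 1 µM on day 3, 1 rose and 1 fell at 0.01 µM, and 2 rose and 1 fell with hydrocortisone at 10 µM. The shares of all genes called in these comparisons were 22.6%, 14% and 13.1%. SGPL1, sphingosine phosphate lyase, which yields a fatty aldehyde, rose in all 3, by 0.41, 0.39 and 0.22 (adjusted p = 7.08e-05, 0.000237 and 0.0455). SPHK1, sphingosine kinase, fell by 0.47 with dexamethasone at 0.01 µM and by 0.58 with hydrocortisone at 10 µM (adjusted p = 0.0155 and 0.00282). At the matched dose of 0.01 µM the change of ALDH1L2 was higher with dexamethasone than with hydrocortisone by 1.44 (adjusted p = 6.59e-05), and that of GLUD1 by 0.62 (adjusted p = 0.00015). PRODH, proline dehydrogenase, rose by 2.50 with dexamethasone at 1 µM on day 3 and by 2.09 on day 6 (adjusted p = 0.000939 and 0.00695).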
